A study of Mus musculus with 5 samples.

Results

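The genes described here are 9 members of the transforming growth factor beta (TGF-beta) pathway, taken by symbol out of the 31253 genes in the files. They are the ligand gene Tgfb1, its activators Furin and Itgb8, the receptors Tgfbr1 and Tgfbr2, the signal carrier Smad3, and the inhibitors Smad7, Ski and Skil. All 9 were found. Their levels were read as unique molecular identifiers (UMIs, counted RNA molecules) in single cells of male mice aged 8 to 10 weeks. In unilateral ureteral obstruction (UUO) the left ureter is tied and cut, which leads to fibrosis of that kidney, while sham-operated mice had the ureter only handled. The 4 libraries with a count matrix were kidney of wild type mice at day 14 of UUO (WT day 14), kidney of B6.Cg-Pdcd1tm1.1Shr/J mice, labelled PD-1-KO, at day 3 of UUO (PD-1-KO day 3), and wild type small intestine, either sham-operated or taken at day 3 of UUO. The labels name the kidney cells innate lymphoid cells (ILCs) and the intestinal cells group 3 ILCs (ILC3). Of a further wild type kidney library, from day 3 of UUO, only the cell barcodes were used here, and no kidney without obstruction was analysed.

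TGF-beta is made as a longer chain that the protease furin cuts, and the cut-off part then wraps the mature growth factor and keeps it silent. Integrins, among them the pair of alpha v (Itgav) and beta 8 (Itgb8), bind that wrapping and help to activate the growth factor. The active growth factor binds the receptor chain Tgfbr2, which recruits Tgfbr1, and the receptors phosphorylate Smad2 and Smad3. Smad7 acts on the receptors and Ski and Skil (SnoN) act on the Smads to damp the signal, and Smad7 and Skil are themselves switched on by it. In tissue, TGF-beta is known for driving fibrosis and for holding lymphocytes in check.

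Both activation steps act on a short stretch of the ligand, shown because Furin and Itgb8 are the members with the sharpest differences between cell classes. Tgfb1 lies at chr7:25687002-25705077, plus strand, GRCm38. The stretch is coding sequence in exon 5 (chr7:25697130-25697258, codons 240 to 282 of 390, read 5′ to 3′ from the GENCODE transcript). The first capitals mark the integrin-binding codons (244 to 246) and the second the codons of the furin cleavage site (275 to 278).
Tgfb1 exon 5: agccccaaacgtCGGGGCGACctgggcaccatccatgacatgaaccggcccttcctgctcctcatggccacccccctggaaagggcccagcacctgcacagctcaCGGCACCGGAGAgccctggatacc
Both sites sit in the same exon, 28 codons apart.

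Each group was 1 library, so no difference between groups was tested, and no p-value is given. A level is the summed UMIs of a gene per 1000000 UMIs of a cell class in a library (CPM). Its 95% interval, in brackets, is exact Poisson, and that of a log2 ratio is exact conditional binomial. Both cover counting error only and none of the difference between mice. Levels are compared across classes for the same gene, not between genes. After filtering, 3501 to 6960 cells per library were kept, with medians of 1824 to 2177 UMIs.

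Cells were put in classes by marker genes. The kidney labels did not hold for most gated cells: T cells were the largest gated class, with 1799 cells in WT day 14 and 3261 in PD-1-KO day 3. ILC1/NK cells numbered 849 and 1055, ILC2 398 and 631, and B cells 92 and 81. Cells with ILC3 markers numbered 85 and 53 in the kidneys, but carried the T cell gene Cd3e at 707 and 182 CPM, so they are not called ILC3 and are left out of the orders of levels below. In the intestine, ILC3 were 2928 of 3501 cells after sham and 3792 of 4946 after UUO, and epithelium 167 and 386. The intestinal libraries shared 158 cell barcodes, against 22 to 27 for the other pairs that have barcodes here, and the shared barcodes fell mostly outside ILC3. They included 63 of the 167 epithelial cells after sham and 79 of the 386 after UUO, but 19 and 13 ILC3. Genotype label and day differ together between the kidney libraries and cannot be told apart. Fewer cells of a subtype in a class and less RNA per cell cannot be told apart either.

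**Figure D1:**
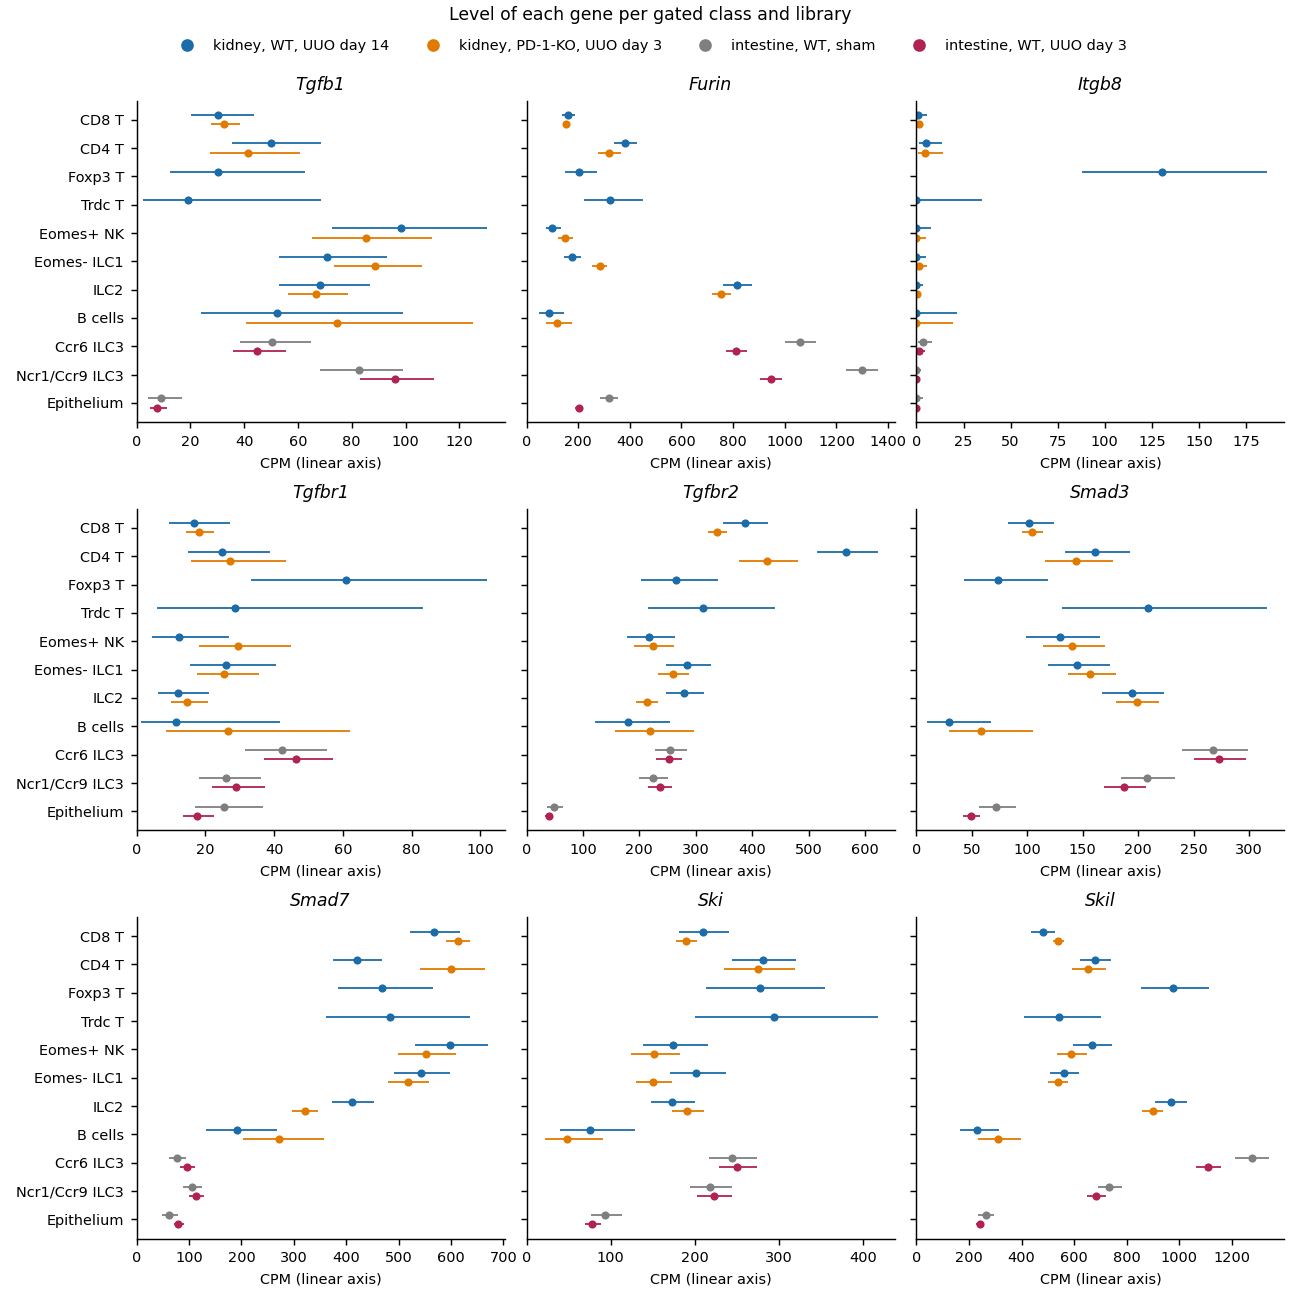
Level of each of the 9 genes (CPM, linear axes that differ between panels) in each gated class (rows), with points for libraries and bars for 95% counting intervals. Itgb8 stands out in Foxp3 T cells, Furin is high in ILC2 and ILC3, and Smad7 is lower in both intestinal ILC3 gates than in the kidney classes.

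The ligand gene Tgfb1 was higher in ILC1/NK cells, ILC2 and ILC3 as a whole than in CD8 T cells, and lowest in epithelium. Its level was 86.0 CPM (72.5-101) in kidney ILC1/NK cells of WT day 14 and 82.1 CPM (71.3-94.1) in those of PD-1-KO day 3. Kidney ILC2 stood at 68.4 and 66.8 CPM, and intestinal ILC3 at 62.7 CPM after sham and 60.2 CPM after UUO. CD8 T cells held 30.3 CPM (20.3-43.5) and 32.7 CPM (27.6-38.3), with intervals below those of the ILC1/NK cells of both libraries. Foxp3 T cells held 30.4 CPM (12.2-62.7) on 120 cells, which overlaps the T cells, ILC2 and ILC3 but not the ILC1/NK cells. Epithelium held 9.08 CPM (4.36-16.7) after sham and 7.69 CPM (5.06-11.2) after UUO.

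Within ILC3, Tgfb1 divided the subsets. ILC3 with Ncr1 or Ccr9 RNA and no Ccr6 (Ncr1/Ccr9 ILC3) held 82.6 CPM (68.1-99.2) after sham and 96.1 CPM (83.1-111) after UUO. ILC3 with Ccr6, which marks the lymphoid tissue inducer-like kind, and neither Ncr1 nor Ccr9 (Ccr6 ILC3) held 50.4 CPM (38.6-64.8) and 44.8 CPM (35.8-55.4). The log2 difference, Ncr1/Ccr9 minus Ccr6, was 0.71 (0.25 to 1.18) after sham and 1.10 (0.73 to 1.49) after UUO. The gate intervals did not overlap in either library. The Ccr6 ILC3 interval after UUO overlapped those of CD8 T cells in both kidney libraries, and that after sham overlapped CD8 T cells of WT day 14.

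Furin, the cleaving protease (chr7:80388585-80405436, minus strand), had its highest levels in ILC3 and ILC2. It stood at 1207 CPM (1180.2-1234) in ILC3 after sham, at 814 CPM (759-872) in ILC2 of WT day 14 and at 755 CPM (718-792) in ILC2 of PD-1-KO day 3. In ILC1/NK cells it stood at 153 CPM (135-173) and 234 CPM (215-254). The log2 difference between ILC2 and ILC1/NK cells was 2.41 (2.21 to 2.62) in WT day 14 and 1.69 (1.55 to 1.83) in PD-1-KO day 3. Among T cells Furin was higher in the CD4 gate, at 382 and 318 CPM, than in the CD8 gate, at 161 and 153 CPM. B cells and Eomes-positive NK cells were lowest, with B cells at 86.9 CPM (48.6-143) and 117 CPM (73.5-178).

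Itgb8, the integrin beta 8 chain (chr12:119158022-119238802, minus strand), was counted mainly in regulatory T cells in WT day 14. Foxp3 T cells of WT day 14, gated on the regulatory T cell factor Foxp3, held 30 UMIs in 120 cells, or 130.3 CPM (87.9-186). The CD4 T gate of that library, which excludes Foxp3, held 4 UMIs in 401 cells, or 5.25 CPM (1.43-13.4). The log2 difference was 4.63 (3.13 to 6.60). ILC1/NK cells and ILC2 of that library held no UMI, and a floor of 3 UMIs would be 1.79 and 3.02 CPM (upper interval bounds 2.20 and 3.71 CPM). Intestinal ILC3 held 4 UMIs in each library, at 0.624 and 0.455 CPM, and epithelium held none.

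Counted by cell, 22 of 198 cells with a Foxp3 UMI carried Itgb8 in WT day 14, a share of 11.1% (exact binomial 7.10-16.3). Outside these cells and the cluster led by Foxp3, 5 of 4920 cells did, or 0.102% (0.0330-0.237), at median depths of 1669 and 1834 UMIs. Those 5 cells held 16 of the 65 Itgb8 UMIs of that library. After thinning each cell to 1000 UMIs, 12.2% (6.82-19.6) of the Foxp3 T gate carried Itgb8. PD-1-KO day 3 held only 19 Foxp3 T cells, too few for a level. There, 3 of 35 cells with a Foxp3 UMI carried Itgb8, or 8.57% with an upper bound of 23.1%, and 20 of the 24 cells carrying Itgb8 lay outside that group and that cluster. Those 20 cells held 32 of the 46 Itgb8 UMIs of PD-1-KO day 3. The T cell, ILC1/NK and ILC2 gates of that library held 12, 2 and 1 Itgb8 UMIs.

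Genes known to work with Itgb8 were also highest in Foxp3 T cells. Itgav, its alpha v chain, stood at 856 CPM (740.4-984) in Foxp3 T cells and at 131 CPM (107-159.6) in CD4 T cells. Lrrc32 (GARP), which anchors latent TGF-beta on the cell surface, stood at 91.2 CPM (56.5-139) and 13.1 CPM (6.29-24.1). ILC2 also carried Itgav, at 388 and 333 CPM in the kidney libraries, but with Lrrc32 at 1.01 and 0.941 CPM, or 1 and 2 UMIs. The ligand and the protease did not follow Itgb8: Furin was lower in Foxp3 than in CD4 T cells, at 204 against 382 CPM, and Tgfb1 at 30.4 CPM overlapped the 49.9 CPM of CD4 T cells.

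**Figure D2:**
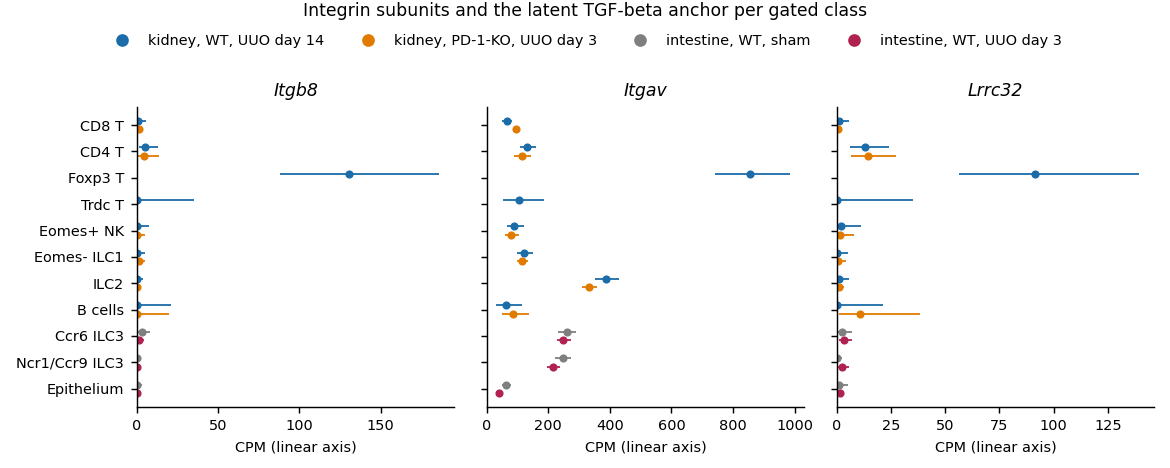
Levels (CPM, linear axes) of Itgb8, its partner chain Itgav and the anchor Lrrc32 in each gated class (rows), with points for libraries and bars for 95% counting intervals. Foxp3 T cells, shown for WT day 14 only, are highest in all 3 panels.

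The receptors were spread differently. Tgfbr2 (chr9:116084293-116175360, minus strand) was highest in CD4 T cells, at 567 CPM (515-623) in WT day 14 and 427 CPM (377-481) in PD-1-KO day 3, and next in CD8 T cells, at 388 and 338 CPM. The ILC classes lay between 213 and 285 CPM, with overlapping intervals for most neighbours. Epithelium stood apart below every lymphoid class, at 49.1 CPM (36.9-64.0) and 39.9 CPM (33.5-47.0). Foxp3 T cells held 265 CPM (203-340.4), a log2 difference of -1.10 (-1.51 to -0.71) from CD4 T cells.

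Tgfbr1 (chr4:47353222-47414931, plus strand), the signalling chain, was sparse everywhere, from 11.6 CPM in B cells to 60.8 CPM (33.2-102) in Foxp3 T cells, and all neighbours in that order overlapped. ILC3 were well counted, at 38.7 CPM (34.0-43.8) after sham and 38.8 CPM (34.8-43.2) after UUO. That is above kidney ILC2, at 12.1 CPM (6.23-21.1) and 14.6 CPM (9.92-20.7).

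Smad3 (chr9:63646767-63757994, minus strand) was highest in Ccr6 ILC3, at 268 CPM (239-299) after sham and 273 CPM after UUO. It was lower in Ncr1/Ccr9 ILC3, at 208 and 187 CPM, with log2 differences of -0.37 (-0.60 to -0.13) and -0.54 (-0.74 to -0.35). Kidney ILC2 held 194 and 199 CPM and CD8 T cells 101 and 104 CPM. Foxp3 T cells held 73.8 CPM (43.0-118), less than the 161 CPM (134-193) of CD4 T cells. B cells, at 29.0 and 58.6 CPM, and epithelium, at 71.8 and 49.2 CPM, were low.

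Smad7, on chromosome 18, showed a gap between the gated classes of kidney and intestine. Every gated kidney T cell and ILC class held between 321 and 614 CPM, and B cells 191 and 272 CPM. Intestinal ILC3 held 92.5 CPM (85.2-100.2) after sham and 107 CPM (100.5-114) after UUO. Against kidney ILC2, the log2 difference of ILC3 after UUO was -1.94 (-2.11 to -1.77) for WT day 14 and -1.58 (-1.72 to -1.44) for PD-1-KO day 3. Against kidney ILC1/NK cells it was -2.35 (-2.48 to -2.21) and -2.32 (-2.44 to -2.19).

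Pmepa1, a target gene of the pathway that also damps it, was lower in ILC3 than in the kidney T cells and ILCs as well. It stood at 7.80 CPM (5.79-10.3) in ILC3 after sham, with an interval of 8.95 to 13.5 CPM after UUO, and between 40.5 and 243 CPM in the kidney T cell and ILC classes. Organ, library and cell class differ together in this contrast and cannot be told apart. Against ILC1/NK cells, 40 of the other pathway genes could be tested in ILC3 after UUO. Of these, 16 were higher and 4 lower for WT day 14, and 16 higher and 3 lower for PD-1-KO day 3. Of all genes, 46.8% and 46.9% differed by 1.5-fold in either direction, and a share by direction is not given. The median log2 difference was 0.25 and 0.36 over these pathway genes and 0.02 and 0.06 over all genes. Against kidney ILC2 the split was more even, at 12 higher and 11 lower of 40 for WT day 14. For PD-1-KO day 3 it was 15 higher and 11 lower of 41. There, 48.3% and 48% of all genes differed. Gadd45b, a stress response gene, stood at 498 CPM in ILC3 and 41.8 CPM in ILC1/NK cells of WT day 14, and Tgif1, a repressor of Smad targets, at 772 and 297 CPM. Other intestinal lymphocytes were few. The intestinal cells in clusters named for ILC1/NK markers, 67 after sham and 86 after UUO, held Smad7 at 199 CPM (143-272) and 122 CPM (83.6-173) and Pmepa1 at 264 and 393 CPM, in the first case overlapping Foxp3 T cells, the highest kidney class, and in the second above it, with Cd3e at 688 and 1226 CPM. The kidney cells with ILC3 markers held Smad7 at 227 CPM (164-305) and 292 CPM (215-387), above the intestinal ILC3 and below the kidney T cells.

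**Figure D3:**
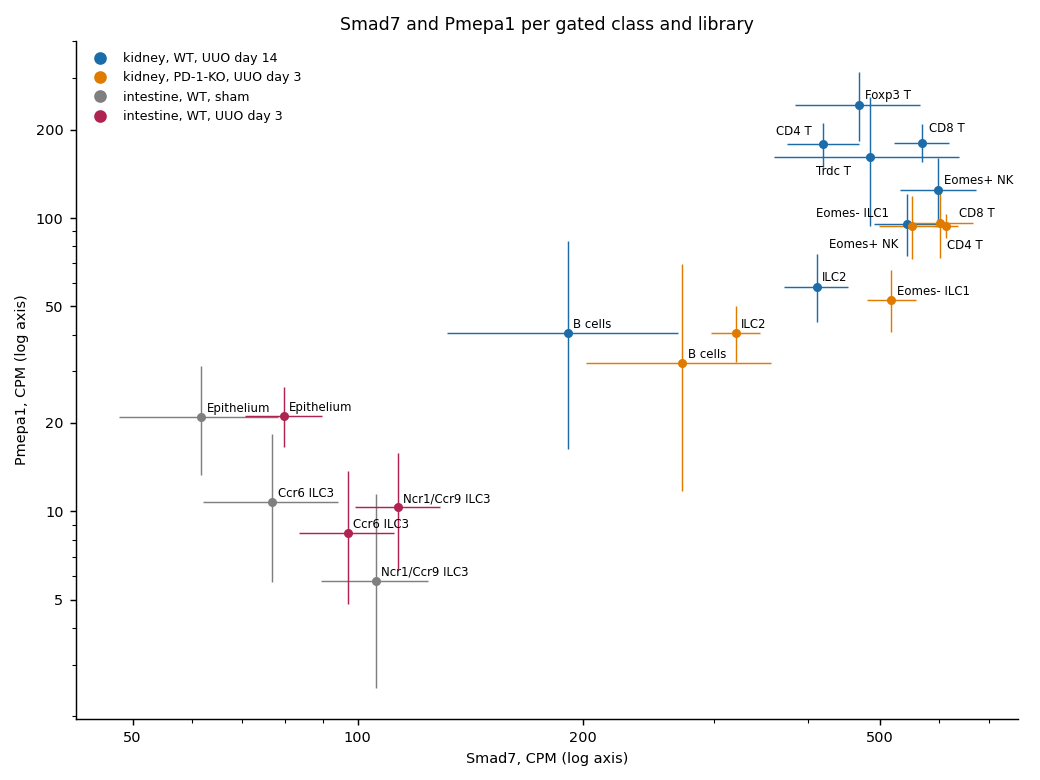
Smad7 against Pmepa1 (both CPM, log axes) for each gated class and library, with bars for 95% counting intervals. The intestinal ILC3 gates and epithelium lie at the lower left and the kidney classes at the upper right, with kidney B cells and ILC2 nearest to the intestine. The intestinal cells in clusters named for ILC1/NK markers, which had higher Pmepa1, are not drawn.

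Ski (chr4:155154075-155222592, minus strand) ranged among T cells and ILCs from 151 CPM in kidney NK cells and ILC1 of PD-1-KO day 3 to 294 CPM in T cells with Trdc RNA. ILC3 held 223 and 231 CPM. B cells held 75.3 CPM (40.1-129) and 48.0 CPM (21.9-91.1), and epithelium 93.6 and 78.3 CPM.

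Skil (chr3:31095058-31122577, plus strand) was high in ILC3 as a whole and in kidney ILC2, as was Furin. It stood at 1037 CPM (1013-1063) and 918 CPM (898-938) in ILC3 and at 967 and 898 CPM in kidney ILC2. Foxp3 T cells also held 977 CPM (854-1114), although their Furin was low. Ccr6 ILC3 held 1276 CPM after sham and 1109 CPM after UUO, and Ncr1/Ccr9 ILC3 held 734 and 684 CPM. The log2 difference between the subsets, Ncr1/Ccr9 minus Ccr6, was -0.80 (-0.91 to -0.68) and -0.70 (-0.80 to -0.60), opposite in direction to that of Tgfb1. That of Furin was also opposite to Skil, at 0.29 after sham and 0.22 after UUO.

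Counts of members use a gap of at least 1.5-fold and at least 100 UMIs in both sums together. Itgb8 never reached that number and is outside all counts. Between the ILC3 subsets, 2 of 7 members passed after sham (Tgfb1 and Skil), where 15.7% of all genes tested did, and 3 of 8 after UUO (also Tgfbr1), where 15.6% did. Tgfbr1 held 28.9 CPM (22.0-37.3) in Ncr1/Ccr9 ILC3 and 46.4 CPM (37.2-57.1) in Ccr6 ILC3 after UUO. That difference depends on the gate, and it turned to a log2 difference of 0.56 when the subsets were gated on at least 2 markers each. Of the 64 other pathway genes, 28 could be tested after sham, of which 2 were higher and 2 lower in Ncr1/Ccr9 ILC3. Itga1, a collagen-binding integrin chain, was the widest, at 71.0 against 13.2 CPM.

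ILC2 differed from ILC1/NK cells in 2 of 7 members in WT day 14, against 35.6% of all genes, and in 4 of 8 in PD-1-KO day 3, against 30.9%. Furin and Skil were higher in ILC2 in both. Smad7 was lower in ILC2 in both, at -0.41 in WT day 14 and, past the threshold, -0.74 in PD-1-KO day 3. Tgfbr1 was at -0.95 in both, but had under 100 UMIs in WT day 14. CD4 differed from CD8 T cells in 2 of 6 members in WT day 14 (Furin and Smad3, both higher), against 15.5% of all genes, and in 1 of 8 in PD-1-KO day 3 (Furin), against 16.9%. Foxp3 differed from CD4 T cells in 3 of 6 members, Furin, Tgfbr2 and Smad3, all lower, where 23.4% of all genes differed and 13.3% were lower. Intestinal ILC3 after UUO differed from kidney ILC2 in 2 of 8 members in both libraries (Smad7 lower, Tgfbr1 higher), against 48.3% of all genes for WT day 14 and 48% for PD-1-KO day 3. They differed from ILC1/NK cells in 5 of 8 and 4 of 8, against 46.8% and 46.9%. The members' counts lay on both sides of these shares, and with 6 to 8 members tested a single gene moves them widely.

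In intestinal ILC3, no member differed by 1.5-fold between UUO and sham, 0 of 8, where 4.72% of all genes did. The median log2 difference was -0.06 over the members and 0.00 over all genes. Furin had the largest difference, with 1207 CPM after sham and 889.9 CPM (870.3-909.9) after UUO, or -0.44 (-0.49 to -0.39). With the main gates it was lower after UUO by a like amount in both subsets, at -0.39 (-0.49 to -0.28) in Ccr6 ILC3 and -0.45 (-0.55 to -0.36) in Ncr1/Ccr9 ILC3. With subset gates on at least 2 markers Furin was at -0.74 in Ncr1/Ccr9 ILC3, past 1.5-fold. In Ccr6 ILC3 it ranged from -0.54 to -0.35 over the alternatives. Thinned to 1000 UMIs, 66.2% (64.5-68.0) of ILC3 carried Furin after sham and 54.8% (53.2-56.4) after UUO (86.2% and 78.5% unthinned). No gated class lacked Furin, and the lowest thinned share was 7.79% in kidney B cells of WT day 14.

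The other members in ILC3 stayed close to sham. Skil was at -0.18 (-0.22 to -0.13), Smad3 at -0.12 (-0.22 to -0.03) and Smad7 at 0.21 (0.06 to 0.36) on the log2 scale, UUO minus sham. Tgfb1 was at -0.06 (-0.25 to 0.13), Tgfbr1 at 0.01, Tgfbr2 at -0.06 and Ski at 0.05, all with intervals that include 0. None of 8 members in Ccr6 ILC3 and none of 7 in Ncr1/Ccr9 ILC3 passed 1.5-fold, where 4.34% and 4.72% of all genes did. Of the other pathway genes in ILC3, 46 of 64 could be tested, and 2 were higher and 1 lower. The lower was Ltbp4, a latent TGF-beta binding protein, at 13.7 CPM after sham and 5.46 CPM after UUO. Epithelial RNA also differed between these ILC3: the 6 enterocyte markers summed to 405 CPM after sham and 1277 CPM after UUO, and the 7 secretory markers to 434 and 174 CPM. Its part in the ILC3 differences was not tested.

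**Figure D4:**
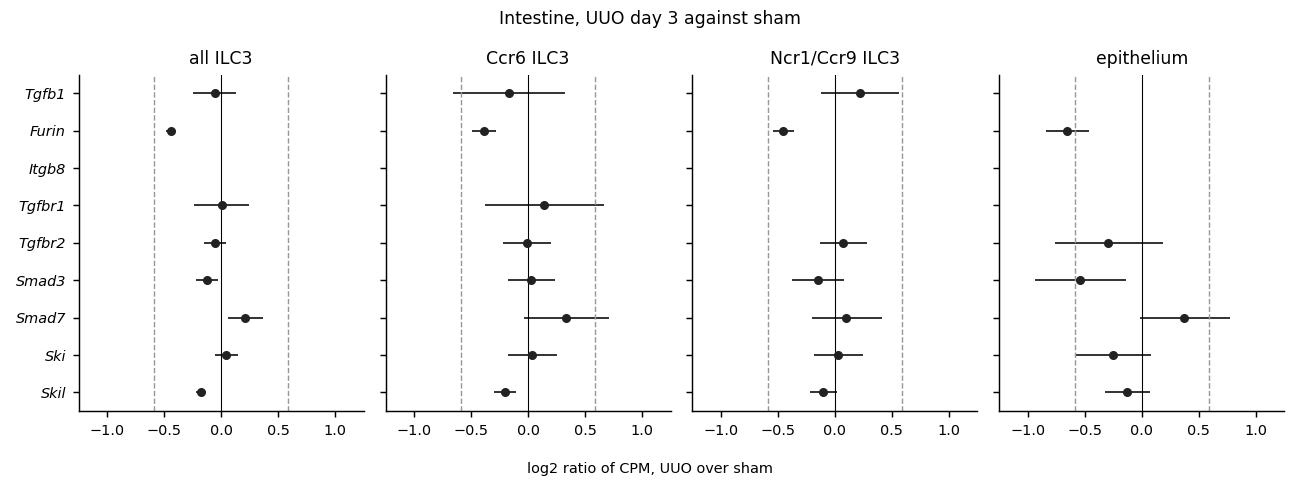
Log2 ratio of CPM, UUO over sham, for members with at least 100 UMIs, in ILC3, their subsets and epithelium. Bars are 95% counting intervals and dashed lines mark 1.5-fold. Furin lies left of 0 in every panel and is past 1.5-fold in epithelium.

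Epithelial cells of the intestine showed the same direction for Furin. It stood at 318 CPM (286-353) after sham and 202 CPM (188-218) after UUO, a log2 difference of -0.65 (-0.84 to -0.46). It was the only 1 of 6 members past 1.5-fold, where 16.9% of all genes were. Without the barcodes found in both libraries it was -0.64. As a mean over cells it was -0.40, and with TMM scaling -0.48, both under 1.5-fold. Smad3 was at 71.8 and 49.2 CPM, or -0.54 (-0.94 to -0.14), and turned to 0.56 without the cells above the 95th percentile of UMIs. Smad7 was at 61.8 and 79.7 CPM, or 0.37 (-0.02 to 0.77), and reached 1.53 without those cells.

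The epithelial cells were not alike in kind or depth. Enterocytes were 66 of 167 after sham and 307 of 386 after UUO, secretory cells 30 and 3, and the median depths 2378 and 3720.5 UMIs. In enterocytes alone, with median depths of 1240.5 and 4018 UMIs, Furin was at 354 CPM (288-430.3) and 200.3 CPM (184-217). Of these enterocytes, 34 of 66 after sham and 67 of 307 after UUO carried barcodes found in both intestinal libraries. Of the other pathway genes, 35 of 64 could be tested in epithelium, where 16.9% of all genes differed by 1.5-fold. Of those 35, 4 were lower and none higher. Thbs1, an activator of latent TGF-beta, was among the lower, at 282 and 151 CPM.

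RNA of ILC3 was counted in epithelium as well. Il22, a cytokine of ILC3, was counted in epithelium at 13.7% (12.7-14.7) of its ILC3 level after sham and 9.73% (9.25-10.2) after UUO. Il7r, another gene of ILC3, was at 7.72% and 4.95% (4.55-5.37). Tgfb1 was at 14.5% (6.90-26.9) and 12.8% (8.33-18.8) of its ILC3 level, which overlaps Il22 but, after UUO, lies above Il7r. Tgfbr2 was at 19.5% (14.6-25.5) and 16.4% (13.8-19.5), overlapping Il22 after sham. Furin, at 26.3% (23.6-29.3) and 22.7% (21.0-24.5), and Skil, at 25.5% and 26.3%, were above Il22 in both libraries, and so were Smad3, Smad7, at 66.8% (51.2-86.0) and 74.3% (64.8-85.0), Tgfbr1 and Ski. The part of ILC3 RNA in these levels was not tested. Against epithelium, ILC3 were higher in 7 of 8 members in each library, all but Smad7, where 65% of all genes differed after sham, 40.8% being higher in ILC3, and 70.1% after UUO, 43.3% being higher. After sham, Tgfbr1 (0.60) and Smad7 (0.58) lay at the threshold: Tgfbr1 was under it in 4 alternatives, and Smad7 past it in 5.

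In the kidney, PD-1-KO day 3 and WT day 14 differed in Furin in ILC1/NK cells. It was at 234 against 153 CPM, a log2 difference, PD-1-KO day 3 minus WT day 14, of 0.61 (0.40 to 0.83). It was the only 1 of 8 members past 1.5-fold, where 7% of all genes were. NK cells with Eomes were at 148 against 100.4 CPM, or 0.56 (0.06 to 1.08), and ILC1 without Eomes at 283 against 176 CPM, or 0.68 (0.39 to 0.98). In ILC1, 1 of 7 members passed, against 10.4% of all genes, and in NK cells 0 of 7, against 6.97%. The difference in ILC1/NK cells lies near the threshold and ranged from 0.55 to 0.67 over the alternatives, 3 of which put it under 1.5-fold. Markers of T cells summed to 965 and 986 CPM in these ILC1/NK cells, and those of ILC2, a class rich in Furin, to 271 CPM in WT day 14 and 357 CPM in PD-1-KO day 3. The part of ILC2 RNA was not tested.

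Furin differed less in ILC2 and in the CD8 and CD4 T cell gates. In ILC2 it was at -0.11 (-0.23 to 0.01), in CD8 T cells at -0.07 (-0.32 to 0.19) and in CD4 T cells at -0.26 (-0.53 to 0.00). Over all T cells it was at -0.70 (-0.82 to -0.58), the only 1 of 8 members past 1.5-fold, against 13.6% of all genes. The makeup of the T cells also differed: CD8 T cells, low in Furin, were 2275 of 3261 in PD-1-KO day 3 and 542 of 1799 in WT day 14. The part of this makeup in the Furin difference was not tested. No member passed in CD8 T cells (0 of 7, against 10.9% of all genes), CD4 T cells (0 of 6, against 11.4%) or ILC2 (0 of 7, against 10.1%).

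Smaller differences ran through several kidney classes. Tgfbr2 was lower in PD-1-KO day 3 in CD4 T cells, at -0.41 (-0.64 to -0.19), ILC2, at -0.39 (-0.61 to -0.17), ILC1/NK cells, at -0.21 (-0.39 to -0.03), and CD8 T cells, at -0.20 (-0.36 to -0.03). Smad7 went both ways, at 0.52 (0.30 to 0.74) in CD4 T cells and -0.36 (-0.54 to -0.18) in ILC2. Ski was at -0.31 (-0.52 to -0.09) in ILC1/NK cells. Tgfb1, Smad3 and Tgfbr1 had intervals that include 0 in all these classes where they could be tested.

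Among the other pathway genes, Pmepa1 was lower by over 1.5-fold in PD-1-KO day 3 in CD8 T cells, at 94.0 against 181 CPM, CD4 T cells, at 95.9 against 178 CPM, and ILC1/NK cells, at 67.0 against 115 CPM. In ILC2, at 40.5 against 58.3 CPM, it did not pass. In CD8 T cells, 6 of 29 genes tested were lower and 2 higher, where 10.9% of all genes differed. Itga1 and Itgae, integrin chains of tissue-resident lymphocytes, were at 63.3 against 240.2 CPM and 24.5 against 75.2 CPM. In ILC1/NK cells, 4 of 30 were higher and 3 lower, where 7% of all genes differed, with Gadd45b at 105 against 41.8 CPM and Cdkn1a, a cell cycle inhibitor, at 294 against 144 CPM. The median log2 difference of the pathway genes was 0.04 in CD8 T cells and 0.01 in ILC1/NK cells, beside -0.02 and -0.04 over all genes.

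**Figure D5:**
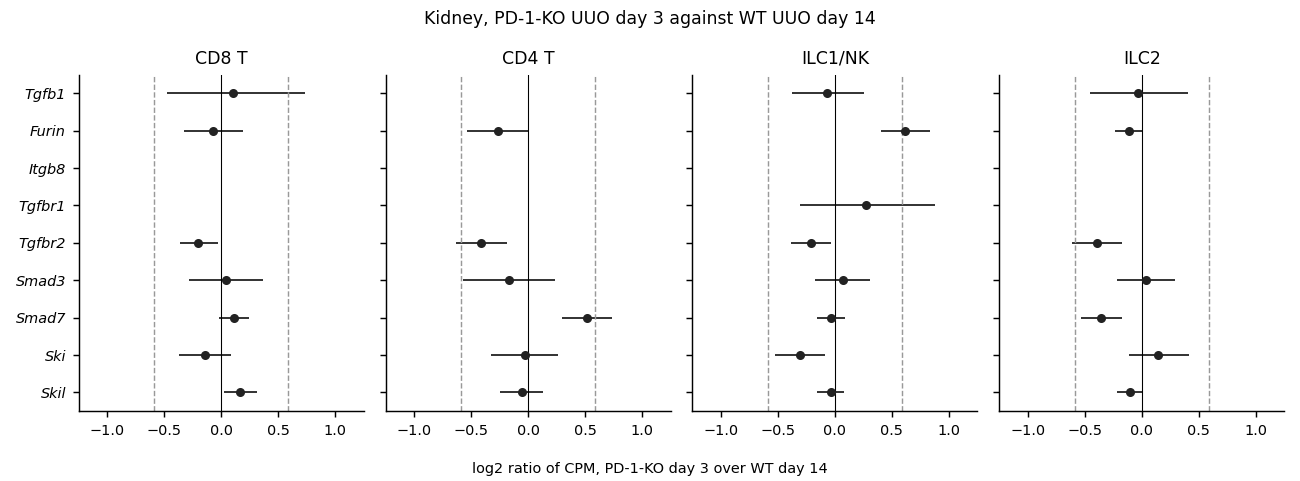
Log2 ratio of CPM, PD-1-KO day 3 over WT day 14, for members with at least 100 UMIs in CD8 T, CD4 T, ILC1/NK and ILC2 gates of the kidney. Bars are 95% counting intervals and dashed lines mark 1.5-fold. Furin in ILC1/NK cells is past that line, at 0.61.

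The genes whose levels ran most like a member's over the 20 library-by-class points were sought by Pearson correlation of log2(CPM + 10) among 9527 genes. The points share libraries, and these values are a description with no test. For Furin they were Tnfrsf25 (r = 0.95), Mib1 (0.95) and Abhd16a (0.93). For Skil they were Rrad (0.94), Rora (0.92) and Tnfaip3 (0.92), and for Smad3 Eya2 (0.94), Acot7 (0.92) and Emb (0.92). For Smad7 they were Ptpn18 (0.96), Kcnab2 (0.95) and Malt1 (0.95), and for Tgfbr2 Phf20l1, Cyld and Sema4d (each 0.95). For Itgb8 they were Hapln1 (0.98), Dclk1 (0.98) and Ky (0.95), which rest on the Foxp3 T point. Ski ran most like Slco3a1 (0.94), Aak1 (0.92) and Adgrl1 (0.92), Tgfb1 like Cntln (0.86) and Nup85 (0.84), and Tgfbr1, the sparsest after Itgb8, like Tox2, Cep112 and Wdr48 (each 0.74).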

How the data were processed

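Libraries were made with the BD Rhapsody system, per the labels' protocols. These describe digestion of pulmonary artery tissue, which is not the tissue of any sample here, and give no sorting step. CASAVA 1.8, UMI-tools and Seurat and the build mm10 appear in the submitters' processing notes, with no role stated. The matrices deposited by the authors hold UMI counts per gene and cell. The gene list used for WT day 14 was that of the other libraries: its summed counts correlated with those of PD-1-KO day 3 at r = 0.99 across genes, and at 0.21 with the list moved by 1 gene.

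Cells with at least 500 UMIs, 250 genes and at most 20% mitochondrial UMIs were kept. A cell joined a class if it carried at least 3 of its markers and at least 2 more than of any other of the 7 classes. T cell and ILC3 subsets were divided by single genes, ILC1/NK cells by Eomes and at least 2 ILC1 markers, and epithelium by the larger marker list. The rest, 37.9%, 26.6%, 10.7% and 14.4% of kept cells (WT day 14, PD-1-KO day 3, sham, UUO), stayed ungated. No doublet caller was run. Levels needed 50 cells. Intervals were computed with scipy 1.17.1. Those of log2 ratios were run on simulated Poisson sums, which hold counting error only and no spread between cells or mice.

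The members and lists were chosen with earlier results of these data known. The gate bar, the subset gates and the comparisons between classes other than the ILC3 subsets were settled after seeing these data, member levels included. Of the other pathway genes, 7 were always looked up, and up to 4 with the largest ratio in each contrast could be named. For likeness, the 3 genes with the highest correlation were named for each member, of which 1 is not reported here. Alternatives were TMM scaling (edgeR 4.0.16), a mean over cells, Leiden clusters (scanpy 1.11.5), other cell filters, no minimum of UMIs, a threshold of 2-fold and, added after seeing the data, 2 other gates.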

Additional observations from a re-analysis of the deposited data

How the results depend on the processing

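Of 1360 alternative log2 ratios of members, 1312 lay inside the main interval and 47 outside it. The other 1 was a ratio past 1.5-fold that changed sign: Tgfbr1 between the ILC3 subsets after UUO, at 0.56 with subset gates on at least 2 markers, a gate added after seeing the data. Ratios under 1.5-fold also changed sign. In epithelium without the cells above the 95th percentile of UMIs, Smad3 was at 0.56 and Tgfbr2 at 0.43, and without shared barcodes Ski was at 0.22. Of 232 alternative counts of members past the threshold, 202 stayed within 1.5 times the main count. Raising the threshold to 2-fold left 0 members in epithelium, in kidney T cells, ILC1/NK cells and Eomes-negative ILC1, and between the ILC3 subsets after sham. It left 1 between the subsets after UUO, between ILC2 and ILC1/NK cells in both kidneys and between CD4 and CD8 T cells in WT day 14, and 2 between intestinal ILC3 and the ILC1/NK cells of each kidney. With no minimum of UMIs the counts were 1 in Ccr6 ILC3 and Eomes-positive NK cells, 2 in kidney T cells, 4 and 2 between CD4 and CD8 T cells in WT day 14 and PD-1-KO day 3, and 6 between Foxp3 and CD4 T cells. In epithelium TMM scaling gave 0, and Leiden clusters, leaving out shared barcodes and a gate margin of 1 marker gave 2. In ILC1/NK cells a mean over cells, leaving out cells above the 95th percentile of UMIs and a margin of 1 marker gave 0. In Eomes-positive NK cells TMM scaling and a mitochondrial limit of 10% gave 1. Leiden clusters gave 2 in kidney T cells and 1 between CD4 and CD8 T cells in WT day 14. Subset gates on at least 2 markers gave 1, Furin, for UUO against sham in Ncr1/Ccr9 ILC3 and 1 between the subsets after sham. The cause of these moves was not tested. No paired analysis was possible because each group is 1 library. Depth limits Itgb8 and Tgfbr1 most, and every interval covers counting error only.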
